A study of Mus musculus with 36 samples.

Results

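The IgLON genes Lsamp, Opcml, Ntm and Negr1 were examined for single-strand breaks (SSBs) and apurinic/apyrimidinic (AP) sites in 24-month-old male mice of the C57BL/6J strain. They were taken by symbol and are 4 of the 49943 genes annotated on the GRCm38 autosomes and sex chromosomes. The genes were chosen by their SSB density across tissues in these same libraries, so the SSB levels across tissues are given as a description, without a test. Bone marrow, peripheral blood mononuclear cells (PBMCs), brain, heart, liver and sperm were obtained, per the labels, from 2 mice, and both assays were run on each of the 12 samples, which gave 24 libraries with 2 replicates per tissue and assay. The labels give no treatment and 1 age, so no comparison with younger animals is made, and RNA profiles are not analysed here. Sperm DNA was purified with a sperm-specific kit and the DNA of the other 5 tissues with another one, so tissue and kit cannot be told apart for sperm. No expression values were used, so the labelled tissues were not checked against marker genes, and in bulk DNA a larger share of damaged cells cannot be told apart from more lesions per cell.

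IgLON proteins are small cell adhesion molecules of the immunoglobulin superfamily that are held in the outer face of the plasma membrane by a glycolipid anchor. They bind one another within and between cells, and in the nervous system they are known for roles in neurite outgrowth and synapse formation. Lsamp encodes the limbic system-associated membrane protein, Opcml the opioid-binding cell adhesion molecule, Ntm neurotrimin and Negr1 neuronal growth regulator 1, a gene also known from human body-weight genetics. An SSB is a nick in 1 strand of the double helix, and an AP site is a sugar left in the backbone after its base has been lost.

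All 4 genes were long. On GRCm38, Lsamp covered chr16:39984254-42181679 on the plus strand, with 2197426 bp. Opcml covered chr9:27790716-28925410 on the plus strand, with 1134695 bp, and Ntm covered chr9:28994749-29963269 on the minus strand, with 968521 bp. The 3′ ends of Opcml and Ntm faced each other across a gap of 69338 bp that held no annotated gene. Negr1 covered chr3:156561790-157316464 on the plus strand, with 754675 bp. The remaining family member, Iglon5, spanned only 17311 bp (chr7:43472901-43490211, minus strand) and held between 0 and 17 positions in a library, too few for most of the comparisons below. The exon structure was not used here, so each count covers exons and introns together.

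Transcription begins at an annotated start, and the 10 kb around most of these starts were denser in lesions than the gene, as described further below. Promoter stretches of 3 members are printed to show how thinly single-nucleotide lesions were spread at this depth. Each is the 250 bases upstream of an annotated start on the gene's own strand, from RefSeq (GRCm38), and capitals mark every nucleotide that was listed as an SSB or AP site, on either strand, in any of the 24 libraries. The windows lie at chr16:41532576-41532825 for the downstream start of Lsamp, chr9:29413453-29413702 (minus strand) for Ntm and chr3:156561544-156561793 for Negr1.
Lsamp downstream start: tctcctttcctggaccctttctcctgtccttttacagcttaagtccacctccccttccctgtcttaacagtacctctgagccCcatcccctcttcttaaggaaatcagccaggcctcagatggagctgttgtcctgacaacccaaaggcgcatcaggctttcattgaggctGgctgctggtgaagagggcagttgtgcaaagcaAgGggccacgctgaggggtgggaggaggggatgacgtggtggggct
Ntm: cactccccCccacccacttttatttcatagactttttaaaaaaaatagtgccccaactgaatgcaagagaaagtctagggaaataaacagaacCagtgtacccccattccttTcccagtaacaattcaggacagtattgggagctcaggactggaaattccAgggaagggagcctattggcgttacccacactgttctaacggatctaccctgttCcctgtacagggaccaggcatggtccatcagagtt
Negr1: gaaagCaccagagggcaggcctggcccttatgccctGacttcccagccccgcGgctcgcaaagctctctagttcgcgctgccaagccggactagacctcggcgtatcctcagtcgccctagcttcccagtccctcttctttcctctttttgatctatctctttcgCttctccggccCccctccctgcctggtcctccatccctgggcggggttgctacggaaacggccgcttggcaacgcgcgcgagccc
The window of Lsamp held 4 marked nucleotides, 3 from SSBs and 1 from AP sites, and each was listed in a single library. That of Ntm held 5, 2 from SSBs and 3 from AP sites, and that of Negr1 held 5, 4 from SSBs and 1 from AP sites. The window of Opcml, which is not printed, held more, with 8 marked nucleotides, 3 from SSBs and 5 from AP sites. The printed bases held 3 CG dinucleotides at Lsamp, 2 at Ntm and 19 at Negr1, against a median of 6 over the same stretch of 32815 RefSeq windows. The stretches not printed held 12 at the upstream start of Lsamp, 14 at another start of Ntm and 8 at Opcml, so the count differed between starts of the same gene. Over the RefSeq windows of all genes, which run from 250 bases before to 50 after the start, 74.7% of 70004 AP positions fell on A or G when the base was read on the listed strand, against 41.0% of 67111 SSB positions and 50% of all bases. A alone made up 5.51% of the SSB positions and 38.5% of the AP positions.

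Lesion density is given as LPKM, which is 1e+09 times the listed positions in the whole gene, over the product of gene length (bp) and library total, with each position counted once. If all positions were spread evenly over the covered chromosomes, every gene would have an LPKM of 0.376. An SSB library held 225011 to 1041983 positions and an AP library 460719 to 963258. The members had between 69 and 816 SSB positions and between 162 and 755 AP positions in a library.

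The 4 genes differed in density, in nearly the same order in both assays. Ntm was the densest and Lsamp the least dense of the 4 in all 24 libraries, and the full order Ntm, Opcml, Negr1, Lsamp was seen in 12 of 12 AP libraries and 10 of 12 SSB libraries. For AP sites, the LPKM of Ntm was lowest at 0.591, had a median of 0.665 and reached 0.719, while that of Lsamp ran from 0.327 through a median of 0.359 to 0.438. The ratio of Ntm to Lsamp within a library lay between 1.51 and 2.06 for AP sites and between 1.33 and 1.94 for SSBs, so it was above 1 in every library. AP LPKM of Opcml ran from 0.462 to 0.591 (median 0.547) and that of Negr1 from 0.402 to 0.490 (median 0.458). Among the 236 genes longer than 500 kb, ranked by mean AP LPKM from the densest, Ntm stood at place 20, Opcml at 57, Negr1 at 95 and Lsamp at 131, where the median long gene had 0.396. For SSBs the places were 27, 60, 90 and 119 and the median long gene had 0.373. Lsamp was thus close to the even level and the middle of the long genes, and Ntm was in the upper part of them in both assays.

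**Figure D1:**
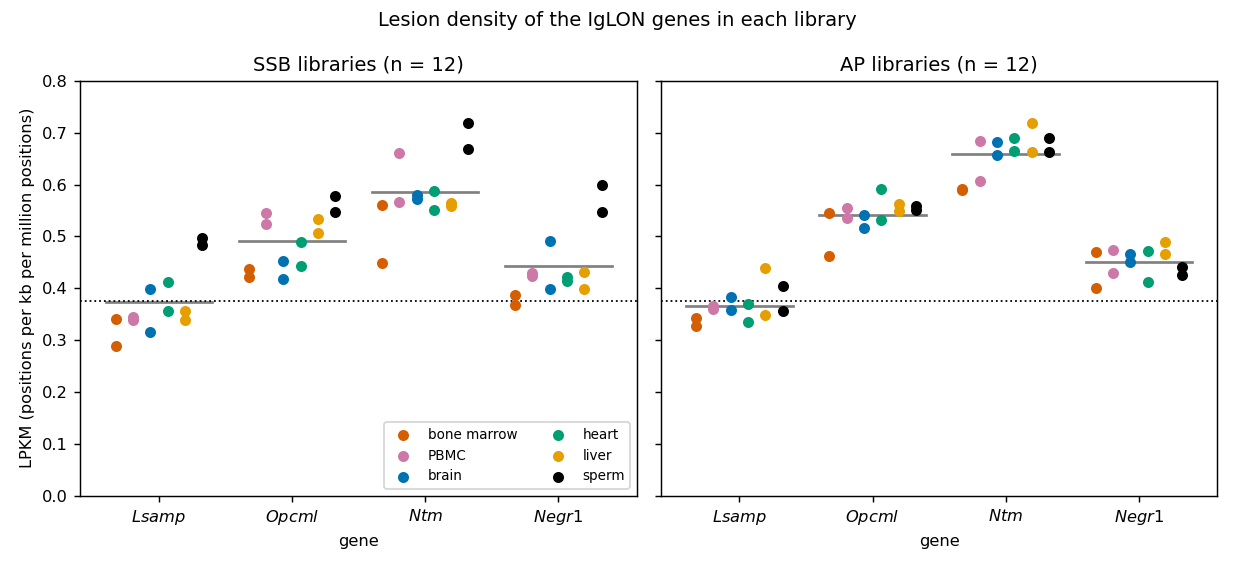
LPKM (lesion density per gene length and library total) of each gene in the 12 SSB libraries (left) and the 12 AP libraries (right), with 1 point per library coloured by tissue, grey bars for the mean of 12 and a dotted line at 0.376, the level of an even spread. Ntm lies highest and Lsamp lowest in each panel, and in the SSB panel the 2 sperm points of each gene stand above its other 10.

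Across tissues, the SSB levels that led to the choice of these genes were highest in sperm and lowest, by the mean, in bone marrow for each of the 4. SSB LPKM of Lsamp, the longest member, was 0.289 and 0.341 in bone marrow, 0.340 and 0.344 in PBMCs, 0.316 and 0.400 in brain, 0.413 and 0.356 in heart, 0.356 and 0.338 in liver, and 0.484 and 0.496 in sperm. Both sperm values lay above the 10 others, and among those each tissue overlapped its neighbour in the order of means. SSB LPKM of Negr1 was 0.367 and 0.387 in bone marrow, 0.424 and 0.429 in PBMCs, 0.400 and 0.492 in brain, 0.422 and 0.413 in heart, 0.398 and 0.431 in liver, and 0.548 and 0.599 in sperm. Sperm again lay above the 10 others, and bone marrow lay below all others. Brain, the tissue in which IgLON proteins are best known, overlapped other tissues in both genes.

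In the other pair of genes sperm stood less far above the other tissues as a ratio of means. SSB LPKM of Ntm was 0.448 and 0.560 in bone marrow, 0.661 and 0.567 in PBMCs, 0.580 and 0.573 in brain, 0.551 and 0.589 in heart, 0.565 and 0.559 in liver, and 0.669 and 0.719 in sperm. The lower sperm value was only just above the higher PBMC value. SSB LPKM of Opcml was 0.438 and 0.422 in bone marrow, 0.525 and 0.545 in PBMCs, 0.454 and 0.417 in brain, 0.442 and 0.490 in heart, 0.534 and 0.506 in liver, and 0.578 and 0.547 in sperm, so brain and bone marrow shared the low end and sperm and PBMCs almost met at the high end. The mean of sperm divided by the mean of the other tissues was 1.40 for Lsamp, 1.38 for Negr1, 1.23 for Ntm and 1.18 for Opcml. Long genes as a group showed the same direction, with a median SSB LPKM of 0.424 and 0.429 in the sperm libraries and between 0.327 and 0.390 in the other 10. The bone marrow libraries, at 0.327 and 0.341, were the lowest of these, so the low end was also shared with long genes. How many genes had such an order of tissues was not counted. For orientation, edgeR's quasi-likelihood F test over the 6 tissues called 0.125% of 38486 genes and 15.7% of the genes longer than 500 kb for SSBs. These shares are background only, and the members' own results of that test are not used, since this contrast stood behind their choice.

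For AP sites, sperm was not highest by the mean in any of the 4 genes, while bone marrow was again lowest in Lsamp, Opcml and Ntm. The SSB levels led to the choice of the genes, but earlier results of these data were known when it was made. The AP values are therefore not an independent check. AP LPKM of Lsamp was 0.327 and 0.343 in bone marrow, 0.360 and 0.365 in PBMCs, 0.358 and 0.383 in brain, 0.335 and 0.370 in heart, 0.438 and 0.349 in liver, and 0.357 and 0.404 in sperm, and the liver pair alone spanned most of the range. The mean of sperm divided by that of the other tissues was 1.05 for Lsamp, 1.03 for Opcml, 1.03 for Ntm and 0.957 for Negr1. The median AP LPKM of long genes was 0.373 and 0.384 in bone marrow, 0.377 and 0.426 in sperm and at most 0.421 elsewhere. In order of mean AP LPKM, only bone marrow and PBMCs in Ntm were neighbours without overlap, at 0.591 and 0.591 against 0.607 and 0.684. The edgeR F test over 6 tissues called 0 of 41374 genes for AP sites at an adjusted p of 0.05 (0% called; 1219 genes had an unadjusted p below 0.05), and DESeq2's likelihood ratio test also called 0. None of the members was called, with unadjusted p of 0.197 for Lsamp, 0.431 for Opcml, 0.108 for Ntm and 0.848 for Negr1, each with an adjusted p of 0.999989. Over the 12 AP libraries the coefficient of variation of LPKM was 8.43% for Lsamp, 5.74% for Opcml, 6.28% for Ntm and 6.18% for Negr1, where counting error alone would give 4.24%, 4.85%, 4.75% and 6.52%.

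Because both assays were run on each sample, SSB and AP density could be compared within samples. In the edgeR test given below, Opcml and Ntm were called lower for SSBs than for AP sites, while no difference was called for Lsamp or Negr1. The SSB counts on 1 side of this comparison also led to the choice of the genes. The members' p-values are therefore not independent of that choice and are read as a description. The ratio of SSB to AP LPKM of Ntm was 0.758 and 0.948 in bone marrow, 0.966 and 0.934 in PBMCs, 0.850 and 0.870 in brain, 0.797 and 0.884 in heart, 0.851 and 0.778 in liver, and 1.01 and 1.04 in sperm. It was thus below 1 in 10 of 12 samples, and the exceptions were the sperm samples. The ratio of Opcml ran from 0.771 in a brain sample through a median of 0.924 to 1.05 in a sperm sample and was below 1 in 11 of 12. The ratios of Lsamp, between 0.812 and 1.36, and Negr1, between 0.812 and 1.36, were below 1 in 8 of 12 samples each. In both genes the samples above 1 were both of sperm, the second of brain and the first of heart.

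With sample as a block, the edgeR quasi-likelihood test called 0.745% of 41210 genes, 0.590% lower for SSBs than for AP sites and 0.155% higher. This split differed between settings: of the genes called, 79.2% were lower with TMM, 37.6% without TMM, 67.4% with DESeq2, 55.6% at equal depth and 46.0% at a mean of at least 20 positions. Among the 236 genes longer than 500 kb it called 24.2% lower and 0% higher, which is 57 and 0 genes. The long genes called lower and higher were 17 and 1 without TMM, 12 and 0 with DESeq2, 4 and 0 at equal depth and 22 and 5 at a mean of at least 20 positions. The fitted log2 difference (SSB minus AP) of Ntm was -0.27 (SE 0.057, adjusted p = 0.00161) and that of Opcml -0.24 (SE 0.057, adjusted p = 0.00807). For Lsamp it was -0.07 (SE 0.055, adjusted p = 0.739), for Negr1 -0.12 (SE 0.063, adjusted p = 0.523) and for Iglon5 -0.31 (SE 0.25, adjusted p = 0.779). The median over all genes was -0.08 and that over genes longer than 500 kb -0.13, so Ntm lay 0.19 and Opcml 0.16 below the median gene while Lsamp lay on it. The p-values test a log2 difference of 0, not a distance from these medians. Counted from the lowest of the 236 long genes, Ntm stood at place 30, Opcml at 51, Negr1 at 129 and Lsamp at 164. The call of Opcml was lost under other scalings, without TMM (log2 difference -0.15, adjusted p = 0.146) and with DESeq2 (-0.16, adjusted p = 0.146). It was also lost with positions thinned to equal depth (-0.20, adjusted p = 0.421) and with a filter at a mean of 20 positions (-0.12, adjusted p = 0.104), and DESeq2 also lost that of Ntm (-0.19, adjusted p = 0.0733). The median over all genes was 0.00 without TMM and 0.03 with DESeq2, so both genes lay below the median gene under these scalings too. Leaving out any 1 sample kept both calls, with the log2 difference of Ntm between -0.30 and -0.25 and that of Opcml between -0.27 and -0.21. Dropping a sample does not undo the choice of the genes by their SSB counts, so these runs are a description too.

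**Figure D2:**
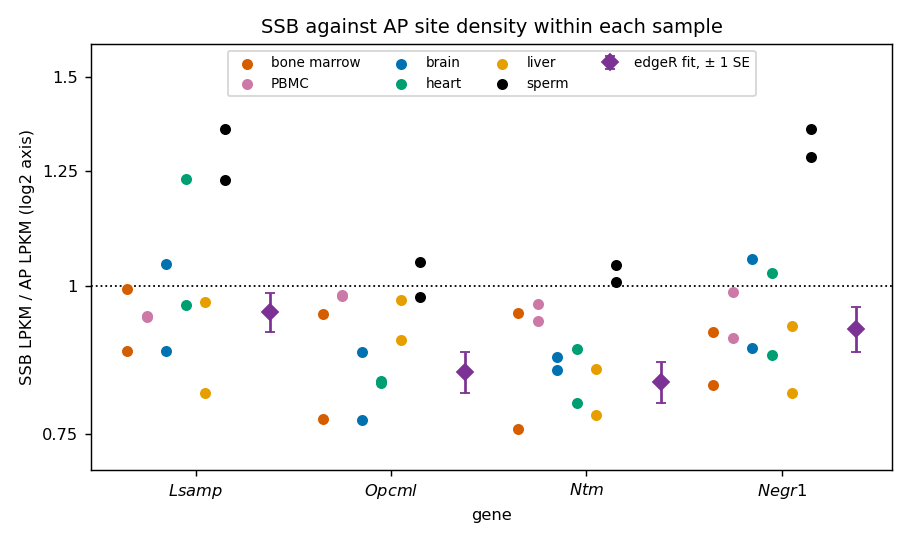
Ratio of SSB LPKM to AP LPKM in each of 12 samples (points coloured by tissue, log2 axis) for each gene, with the edgeR estimate and 1 standard error as a purple diamond, which includes TMM scaling, whereas the points use library totals. The points of Opcml and Ntm lie mostly below 1, and the sperm points of Lsamp and Negr1 lie between 1.23 and 1.36.

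Other neural adhesion genes of the immunoglobulin superfamily (contactins, NCAMs, CADMs, MDGAs, the L1 group and others, 21 genes with Iglon5) gave a median log2 difference of -0.06. Of the 21 tested, 0 were called higher and 1 lower. The one called was Ncam1, the neural cell adhesion molecule, at -0.26 (SE 0.073, adjusted p = 0.0485), and of the 11 genes with a mean of at least 50 positions the next lowest was Nfasc, neurofascin, at -0.23 (adjusted p = 0.164). At the other end of these 11 were Cntn6, a contactin, at 0.23 (adjusted p = 0.307) and Cadm2 at 0.06 (adjusted p = 0.860). Of 8 genes that encode reported partners or sheddases of IgLON proteins, such as the protease Adam10 and the receptor Fgfr2, 1 was called higher and 0 lower, with a median of -0.01. The one called was Fgfr1, a fibroblast growth factor receptor, at 0.51 (SE 0.13, adjusted p = 0.0163), and Fgfr2, the only one of them with at least 50 positions, was at -0.09 (adjusted p = 0.861).

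Lesions of the members were nearly balanced between the strands. The share of SSB positions listed on the gene's own strand was 50.1% of 4483 positions for Lsamp, 52.4% of 3044 for Opcml, 51.1% of 3092 for Ntm and 51.5% of 1827 for Negr1. For AP sites the shares were 51.4%, 51.4%, 49.5% and 51.1%. In single libraries the SSB share of Opcml was above 50% in 10 of 12, with a median of 53.6% and a lowest value of 38.9%, from 113 positions in the second bone marrow library. That of Lsamp ran from 46.3% through 49.4% to 56.5% and was above 50% in 5 of 12. What the listed strand means for the direction of the break is not given in the sources used here, so the gene strand is only the strand of the annotation.

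The strand test drew 0 of 4 members in either assay. Over 6970 genes with a mean of at least 10 positions and a known strand, edgeR called 15.9% for SSBs, 15.4% higher on the gene strand and 0.531% lower, and among the 183 genes longer than 500 kb it called 39.9% higher and 1.64% lower. The log2 difference between the strands was 0.00 (SE 0.046, adjusted p = 0.962) for Lsamp, 0.14 (SE 0.055, adjusted p = 0.0611) for Opcml, 0.06 (SE 0.054, adjusted p = 0.452) for Ntm and 0.08 (SE 0.069, adjusted p = 0.427) for Negr1. The median was 0.22 over all genes and 0.17 over the long genes, so the 4 members lay on the low side of both. Opcml was called when genes with a mean under 50 positions were left out (adjusted p = 0.0249) and when the second bone marrow sample was left out (adjusted p = 0.0211). For AP sites, where 0.502% of genes were called, 0.416% higher and 0.0861% lower, the members lay between -0.03 and 0.08, with adjusted p between 0.348 and 0.843. The difference between the assays was called for 5.70% of genes and for 0 of the 4 members (adjusted p from 0.484 to 0.947). In the adhesion list, 15 genes were tested for SSBs, with a list median of 0.09. Chl1, an L1-type molecule, was called higher on the gene strand (0.49, SE 0.14, adjusted p = 0.00657) and the contactin Cntn5 lower (-0.21, SE 0.068, adjusted p = 0.0178), and for AP sites 0 were called. Of 6 partner genes tested, Adam10 was called higher for SSBs (0.76, SE 0.21, adjusted p = 0.00685).

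**Figure D3:**
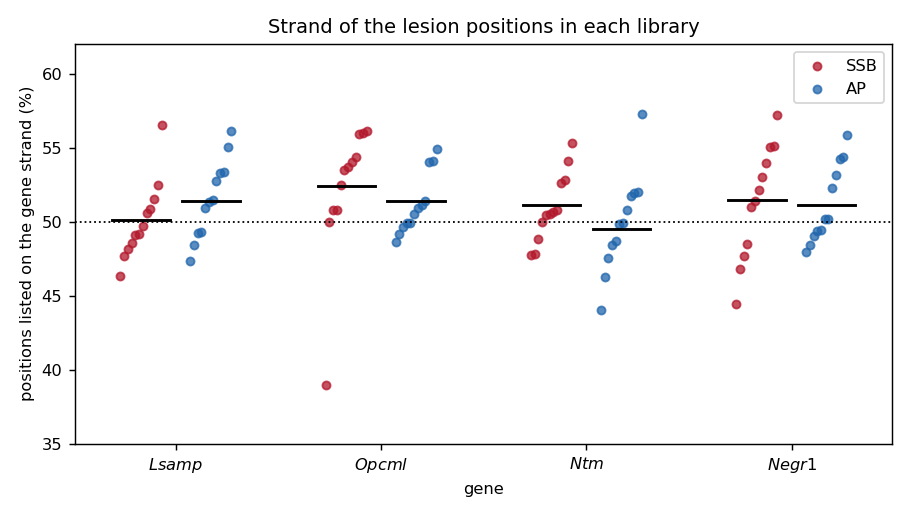
Share of positions listed on the gene strand (%) in each library, for SSBs (red) and AP sites (blue), with black bars for the 12 libraries pooled and a dotted line at 50%; the axis does not start at 0. The pooled bars lie between 49.5% and 52.4% for all 4 genes in both assays.

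Along the genes, SSBs and AP sites followed similar courses. With each gene cut into 20 bins from its 5′ to its 3′ end, Pearson's r between the pooled SSB and AP densities over bins was 0.890 for Lsamp, 0.754 for Opcml, 0.797 for Ntm and 0.754 for Negr1. These are descriptions over 20 bins that share the DNA sequence and its mappability. The densest bin was the same in both assays in each gene. In Lsamp it was the last one, 2088 to 2197 kb from the 5′ end, with 1.49 times the gene mean for SSBs and 1.41 times for AP sites, and it held more than an even share in 11 of 12 libraries of each assay. In Opcml it was the bin from 454 to 511 kb (1.36 and 1.39 times), in Ntm that from 291 to 339 kb (1.24 and 1.28 times) and in Negr1 that from 453 to 491 kb (1.39 and 1.27 times). These bins held more than an even share in 9 SSB and 12 AP libraries for Opcml, 9 and 10 for Ntm and 10 and 8 for Negr1. For AP sites in Negr1 the bin, with 189 positions, was nearly matched by that from 604 to 641 kb, with 185. The emptiest bin of Lsamp was also shared, from 1318 to 1428 kb, with 0.767 times the mean for SSBs and 0.755 times for AP sites. On a finer scale, the 50-kb window with most positions was the same in both assays in Opcml (chr9:28240716-28290715, 201 SSB and 343 AP positions, against medians of 128.5 and 232.5) and in Ntm (chr9:29644749-29694748, 240 and 418, against 162 and 283), but not in Lsamp or Negr1.

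**Figure D4:**
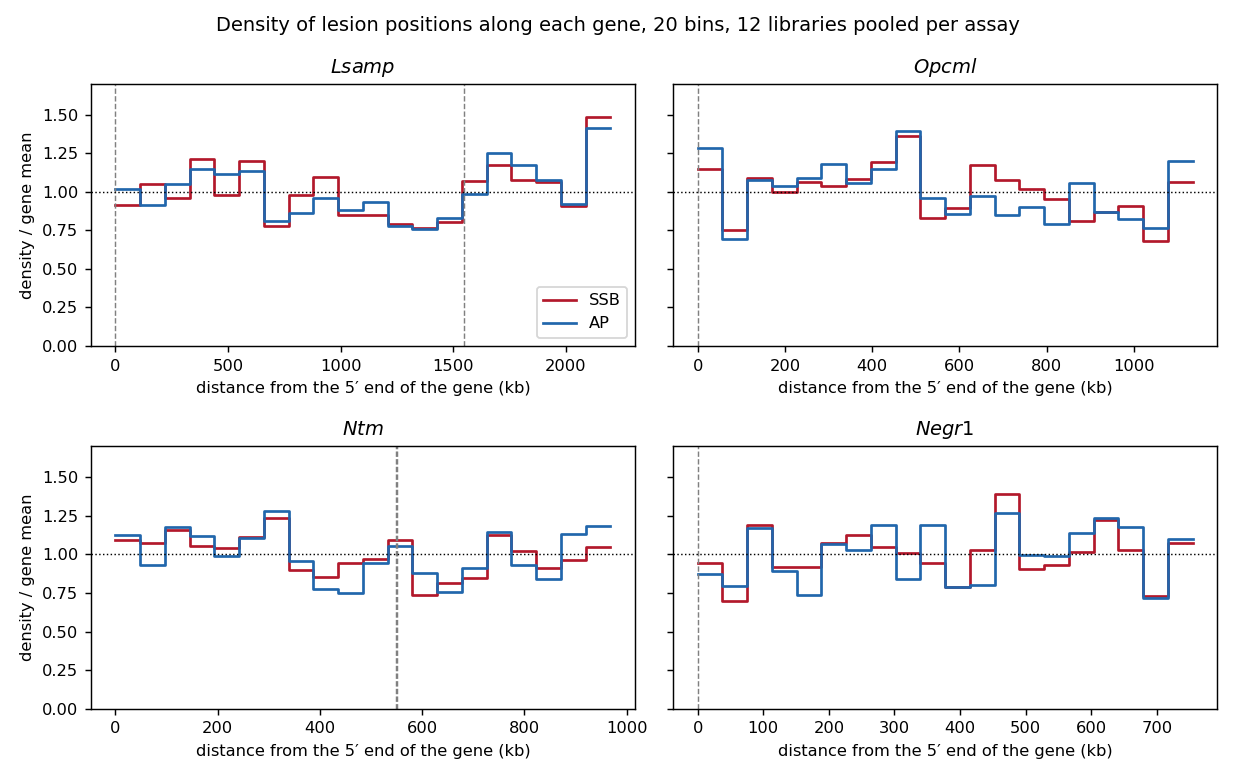
Density of SSB (red) and AP (blue) positions relative to the gene mean in 20 bins from the 5′ end (kb), 12 libraries pooled per assay, with dashed lines at the annotated starts. The curves of both assays rise and fall together, and the last bin of Lsamp is the highest of its gene in both.

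Each gene was cut at its midpoint, and the 5′ side was compared with the 3′ side within each library. In Opcml the 5′ side was denser, with a share of positions above 50% in 11 of 12 SSB libraries and 11 of 12 AP libraries. The log2 difference was 0.16 (SE 0.053, adjusted p = 0.0205) for SSBs and 0.26 (SE 0.041, adjusted p = 2.6e-09) for AP sites. Over 6970 genes, edgeR called 20.8% for SSBs, 7.13% with a denser 5′ side and 13.7% with a denser 3′ side, and 40.3% for AP sites, 8.78% and 31.5%. Among the 183 genes longer than 500 kb a denser 5′ side was called in 22 for SSBs and 28 for AP sites, and a denser 3′ side in 70 and 93. The direction of Opcml was thus the less frequent one. Ntm had 0.13 (SE 0.053, adjusted p = 0.0508) for SSBs, just short of a call, and 0.06 (adjusted p = 0.205) for AP sites. With 1 sample left out Ntm was called for SSBs in 3 of 12 runs. Lsamp (0.00 and -0.03) and Negr1 (-0.03 and -0.06) were not called in either assay. The difference between the assays was called in 0.287% of genes and in 0 of the 4 members (adjusted p from 0.577 to 0.946). The SSB call of Opcml was lost without the first bone marrow sample (0.12, adjusted p = 0.118), without the second heart sample (0.15, adjusted p = 0.0685), without the second liver sample (0.13, adjusted p = 0.0929) and without bone marrow as a whole (0.12, adjusted p = 0.134). It was also lost with DESeq2 (0.15, adjusted p = 0.127) and without the library block (0.15, adjusted p = 0.0558), while its AP call was kept in all of these. When the first 20% of the gene was set against the last 20%, neither call of Opcml was kept (0.18, adjusted p = 0.165 for SSBs and 0.16, adjusted p = 0.0545 for AP sites), and Lsamp was called lower at its 5′ end for AP sites (-0.15, adjusted p = 0.0298). In the adhesion list, 2 of 15 genes were called in each direction for SSBs and 3 in each for AP sites.

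Lsamp and Ntm have annotated starts far inside the gene. The RefSeq windows place a second start of Lsamp 1549 kb downstream of the 5′ end. The long stretch upstream of it was less dense than the remaining 649 kb, with a pooled ratio of 0.846 for SSBs and 0.836 for AP sites, and the ratio was above 1 in 1 of 12 SSB libraries and 0 of 12 AP libraries. In Ntm, whose starts in the table lie 550 kb and 551 kb inside the gene, the part upstream of them was slightly denser, by 1.11 for SSBs and 1.04 for AP sites, above 1 in 10 and 9 of 12 libraries. These cuts were chosen with the positions of the starts known and were not tested.

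The 10 kb around an annotated start was denser in SSBs than the gene as a whole at 5 of 6 starts by the exact Poisson 95% interval, which covers counting error only. The ratio to the gene's own density was 2.16 (1.57 to 2.90) at the downstream start of Lsamp, 2.15 (1.604 to 2.82) at Negr1, 1.68 (1.22 to 2.24) at Opcml and 1.57 (1.16 to 2.06) at both starts of Ntm, which lie within the same window. At the upstream start of Lsamp it was 1.32 (0.872 to 1.93), an interval that includes 1. For AP sites the ratios were 1.62 and 1.09 at the downstream and upstream starts of Lsamp, 1.89 at Negr1, 1.254 at Opcml and 1.26 and 1.30 at Ntm, and the intervals of the upstream Lsamp start, Opcml and the first of the Ntm starts included 1. A denser start was common among long genes. Of the 183 genes longer than 500 kb with a start in the table, 84.2% had a ratio above 1 for SSBs at their most upstream start and 83.1% for AP sites, with medians of 1.59 and 1.38. The most upstream starts of the members stood at places 45 (Negr1), 76 (Opcml), 95 (Ntm) and 121 (Lsamp) among these for SSBs, so they were not set apart.

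Finally, each gene was compared with flanks on both sides that together were as long as the gene. Lsamp, Ntm and Negr1 were denser than their flanks in both assays and Opcml was less dense. The edgeR test called 50.7% of 8956 genes for SSBs, with the gene higher in 35.7% and lower in 15.1%, and 61.0% for AP sites, higher in 44.1% and lower in 16.8%, so such a difference was frequent. Among the 235 genes longer than 500 kb tested, 126 were called higher and 55 lower for SSBs, and 146 and 51 for AP sites. Counted from the lowest of these for SSBs, Opcml stood at place 59, Lsamp at 128, Negr1 at 136 and Ntm at 173. For SSBs the log2 difference was 0.35 (SE 0.042, adjusted p = 1.7e-14) for Ntm, 0.22 (SE 0.052, adjusted p = 0.00012) for Negr1, 0.19 (SE 0.036, adjusted p = 5.1e-07) for Lsamp and -0.12 (SE 0.040, adjusted p = 0.00979) for Opcml. For AP sites it was 0.34, 0.31, 0.20 and -0.08, with adjusted p of 1.6e-22, 2.6e-12, 2.6e-10 and 0.0209 in the same order. The difference between the assays was called in 0.424% of genes and in 0 of the members (adjusted p from 0.646 to 0.987). Of the adhesion list, 13 of 17 genes tested were higher and 0 lower for SSBs, with a list median of 0.40 against 0.17 over all genes. For AP sites 12 were higher and 0 lower (median 0.39). Nrcam, a member of the L1 group, had the highest values of the list among the genes called, at 0.93 for SSBs and 1.22 for AP sites. Of 7 partner genes, 3 were higher and 0 lower for SSBs and 4 higher and 2 lower for AP sites.

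The direction of Opcml depended on which flanking sequence was counted. Its downstream flank runs into the denser Ntm, whose part alone was not tested, and its flanks overlap 8 annotated genes in all. The downstream flank of Ntm likewise runs into Opcml, so the results of these neighbours share sequence. When flanking sequence inside other annotated genes was left out (49.5% of it remained) the pooled ratio of gene to flank turned from 0.923 to 1.08 for SSBs and from 0.946 to 1.18 for AP sites. Measured that way the ratio of Opcml was above 1 in 7 of 12 SSB libraries and 12 of 12 AP libraries, and the pooled ratios of the other 3 genes lay between 1.19 and 1.32. The call of Negr1 for SSBs was lost with shorter flanks (0.11, adjusted p = 0.138). With these, that of Opcml was lost in both assays (adjusted p = 0.400 and 0.366). The call of Opcml was also lost in SSBs without the second brain sample (-0.09, adjusted p = 0.0874), and in AP sites in 4 of 12 runs that left out a sample. Its AP call was further lost with DESeq2 (-0.08, adjusted p = 0.0828), without sperm (-0.07, adjusted p = 0.0772) and without the library block (-0.08, adjusted p = 0.0540). Over the pooled libraries, the gap between Opcml and Ntm held 165 SSB and 325 AP positions. Its LPKM was 0.431 for SSBs, against 0.486 in Opcml and 0.578 in Ntm. For AP sites it was 0.531, against 0.542 and 0.656. The gap was not tested and its counting error was not computed, so its place relative to Opcml is left undecided.

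**Figure D5:**
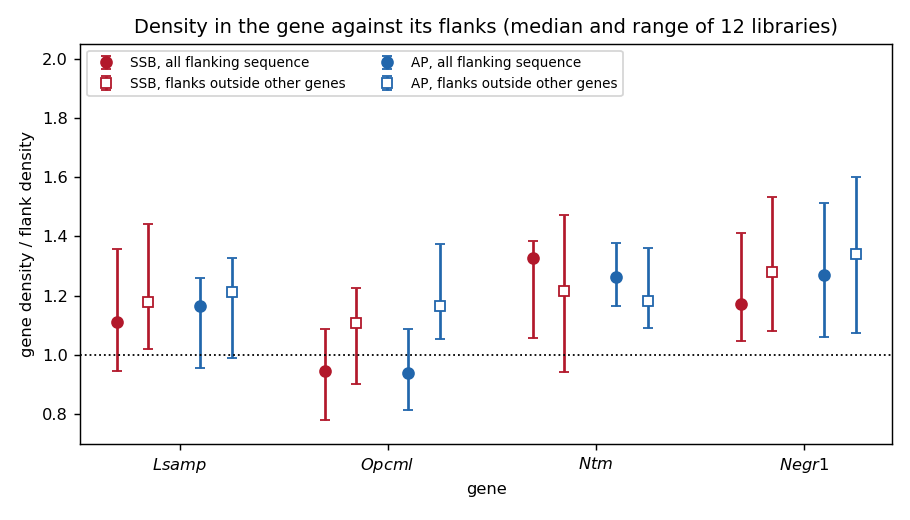
Density in the gene divided by density in its flanks, as the median and range of 12 libraries, for SSBs (red) and AP sites (blue), with all flanking sequence (filled circles) or only flanks outside other annotated genes (open squares). By the median, Opcml lies below 1 with all flanking sequence and above 1 without other genes, while Lsamp, Ntm and Negr1 lie above 1 by both. Some ranges cross 1, among them those of Opcml and Lsamp with all flanking sequence.

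Single nucleotides seldom recurred. Of the distinct SSB nucleotides in a member, 0.264% (Opcml) to 0.440% (Negr1) were listed in 2 or more of the 12 SSB libraries, against 0.519% over all positions, and 0 were listed in 3. Of the AP nucleotides, 1.19% (Negr1) to 1.85% (Ntm) were listed in 2 or more libraries, against 1.45% over all positions, and 6 were listed in 3, of which 3 were in Lsamp, 1 in Ntm and 2 in Negr1. One of these was chr16:40429069 in Lsamp, on the minus strand, listed in both brain libraries and a sperm library. Between 0.694% (Lsamp) and 1.30% (Ntm) of the distinct SSB nucleotides were also listed as AP sites, against 0.913% over all positions.

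Over the 12 SSB libraries, the members' LPKM profiles were set beside those of 942 other genes with a mean of at least 50 SSB positions, by Pearson's r of log2 LPKM with 0.5 added to each count. All these genes share libraries and their depth, and the SSB levels compared are those that chose the members, so likeness among members was favoured by their choice and the values are a description. The closest to Lsamp were Grik2 (r = 0.943), a kainate receptor subunit, Negr1 (0.908) and Lrrc4c (0.856), a synaptic adhesion gene. Lsamp was in turn the closest to Negr1. Sorcs3 (0.921), Dpp10 (0.906) and Anks1b (0.876) were closest to Ntm, and Slc25a21 (0.888), Grm5 (0.881), a metabotropic glutamate receptor, and the Igk locus (0.851) to Opcml. Although they are neighbours, Opcml stood only at place 118 for Ntm (r = 0.623), and at place 258 for Lsamp (r = 0.421).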

How the data were processed

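The 24 deposited lists, 1 per library, hold 1 nucleotide per line, its strand and an unnormalized count, made by the authors with SSiNGLe or SSiNGLe-AP without pooling replicates. The submitters' processing notes name mm10 and GRCm38. The aligner is not given in the sources used here. These deposited counts were used only in an alternative, and each position was otherwise counted once. Positions on either strand were assigned to whole RefSeq gene spans of GRCm38, and overlapping genes each received them. Gene strand came from the RefSeq start table (183 of 236 genes longer than 500 kb). Genes present in 20% or more of the libraries were tested with edgeR 4.0.16 in R 4.3.3 (quasi-likelihood test with TMM factors on library totals, Benjamini-Hochberg adjusted, called at 0.05). Strand, 5′ against 3′ side and flanks were fitted without TMM, with library as a block, for genes with a mean of at least 10 positions. DESeq2 1.42.0 was an alternative. Counting used pandas 2.3.3 and numpy 2.4.6 under Python 3.11.15, and figures matplotlib 3.10.9.

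Labels gave the groups. Per the labels 2 mice supplied the tissues, without saying whether a replicate number marks the same mouse in each, so p-values measure only the spread between these samples. Genes named were the members, Iglon5, the 2 lowest and 2 highest of each list by SSB against AP with at least 50 positions, the 3 nearest profiles, and list genes called, which were added after their values were seen. The members and lists were chosen with earlier results of these data known. The flank, start and segment ratios and the recurrence counts have no test. On simulated data the SSB against AP test, run on 40801 genes, recovered 52.2% of genes changed 1.25-fold and 100% of those changed 1.5-fold, and the SSB strand test, run on 6970 genes, recovered 73.1% and 100%. The changed genes, 67 for each of these folds, were drawn from genes with a mean of at least 100 positions. They were always raised in SSBs, at 1 fixed dispersion. Recovery of genes with fewer positions or of lowered genes was not simulated.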

Additional observations from a re-analysis of the deposited data

Results flagged for a closer look

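The SSB to AP ratio stood on opposite sides of 1 in sperm and in other tissues for 3 of the 4 genes, in every sample of the tissues named below. In Lsamp it was 1.36 and 1.23 in the sperm samples (mean 1.29) and between 0.812 and 0.995 in the 6 samples of PBMCs, bone marrow and liver. In Negr1 it was 1.28 and 1.36 in sperm (mean 1.32) and between 0.812 and 0.987 in the 6 samples of the same 3 tissues. Brain and heart were mixed in both of these genes. In Lsamp the first heart sample, at 1.231, was just above the second sperm sample, at 1.228, and the second brain sample was at 1.04. In Negr1 the second brain sample was at 1.05 and the first heart sample at 1.03. In Ntm it was 1.01 and 1.04 in sperm (mean 1.03), barely above 1, and between 0.758 and 0.966 in the 10 samples of the other 5 tissues. The median long gene had 0.429 for SSBs against 0.377 for AP sites in the first sperm sample, and 0.424 against 0.426 in the second. In each sample of the other tissues this median was lower for SSBs than for AP sites, so part of the pattern was shared by long genes. How many genes of the genome had such a pattern was not counted, and the difference between tissues was not tested. The SSB values in these ratios are those that led to the choice of the genes, and sperm DNA was purified with another kit, so tissue and kit cannot be told apart. Groups of 2 samples were too small for a check of single outlying samples.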

How the results depend on the processing

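Mean levels of the members changed little under the alternatives, while several numbers of genes called changed. Thinned to the smallest library, the mean AP LPKM of Ntm moved to 0.693, and all other mean levels stayed within the spread of replicates under each alternative. The number of genes called for SSB tissues was 15 without TMM, 4 with DESeq2, 93 at a mean of at least 20 positions, 7 without sperm and 3 without bone marrow. For SSB against AP it was 18 at equal depth, 173 without TMM, 43 with DESeq2, 176 at a mean of at least 20 positions and 175 without bone marrow. Without TMM 65 of the 173 genes called were lower, against 243 of 307 with TMM, and with DESeq2 the median over all genes was 0.03. For strand, DESeq2 called 695 genes in SSBs, 1 in AP sites and 150 for their difference. A mean of at least 50 positions gave 486, 64 and 241, a mean of at least 2 gave 16 in AP sites and 221 for the difference, and leaving out sperm gave 22 and 263. For the 5′ against the 3′ side, a mean of at least 50 positions gave 403 in SSBs, 622 in AP sites and 13 for the difference, a mean of at least 2 gave 4305 in AP sites and 9 for the difference, and the difference had 6 calls with DESeq2, 10 without sperm and 9 without bone marrow. For gene against flanks, a mean of at least 50 positions gave 1088 in SSBs and 1177 in AP sites, a mean of at least 2 gave 7380, 10243 and, for the difference, 23, and the difference had 15 calls with DESeq2, 24 without sperm and 22 without bone marrow. The cause of these changes was not tested beyond the number of genes or samples left. Outside other genes the density ratio of Opcml to its flanks reversed to 1.08 for SSBs and 1.18 for AP sites.

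Leaving out 1 sample at a time gave 4 (without the first bone marrow sample) to 65 genes for SSB tissues, 0 to 2 (without the second liver sample) for AP tissues, 22 to 49 for strand in AP sites, 10 to 22 for sides between assays and 20 to 35 for flanks between assays. The values of single members kept their side of the threshold in 823 settings, lost a call in 24 and gained one in 7. A further 2, the flank density ratios of Opcml, reversed. The 823 include 6 other flank density ratios, which have no threshold. They also include the AP tissue tests, 48 with a sample left out and 40 under other settings, all with an adjusted p of 0.998506 or more.

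The data did not show that replicate numbers pair the samples. Between tissues, the replicate differences had correlations from -0.034 to 0.023 for SSBs and from -0.188 to 0.131 for AP sites, with 0 and 1 of 15 above 0.1. With the replicate number as a block, 59 genes were called for SSB tissues and 0 for AP tissues. Without the sample or library block, 419 were called for SSB against AP, 17 for strand in AP sites, 13 for sides between assays and 11 for flanks between assays.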
